A study of Mus musculus with 12 samples.

Results

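The 10 genes described here encode carbonic anhydrases of the mouse: Car1, Car2, Car3, Car4, Car5a, Car8, Car9, Car12, Car13 and Car14. They were taken by symbol from the 53715 genes of the count table, where each symbol met 1 Ensembl identifier, and were selected on their measured RNA levels, since earlier results of these data showed that these differed between the groups. All 10 had more than 10 counts in some library and so entered the fit of 17779 genes. Car4 passed that limit only in hepatoblasts, and Car9, Car12 and Car13 only in hepatoblasts and Diff. hepatocytes. RNA was measured in 12 libraries from C57BL/6JOlaHsd mice, 4 in each of 3 groups. Hepatoblasts, the common precursors of hepatocytes and bile duct cells, were pooled from 16 to 24 livers at E14.5 (days of embryonic life), enriched with magnetic beads for the surface protein Dlk1 after red cells had been lysed, and lysed for RNA at once. Diff. hepatocytes were such Dlk1+ cells after 4 days of culture on fibronectin under diluted Matrigel with dexamethasone. Mature hepatocytes were freed by collagenase perfusion from livers of male mice of 8 to 12 weeks and lysed directly. The adult animals were all male and the sex of the pooled embryos was not given, so sex, age and isolation method cannot be told apart from the group in any comparison with mature hepatocytes.

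Carbonic anhydrases convert carbon dioxide and water to bicarbonate and a proton, and back. Most hold a zinc ion between 3 histidines of the active site. The cytosolic forms are Car1, Car2, Car3, Car7 and Car13, of which Car1 and Car2 are known as abundant red-cell enzymes and Car3 as an abundant protein of muscle, fat and adult liver with weak hydratase activity. Car5a and Car5b sit in mitochondria, where bicarbonate is the substrate of carbamoyl phosphate synthetase in the urea cycle and of pyruvate carboxylase in gluconeogenesis. Car4, Car9, Car12 and Car14 face the outside of the cell, Car4 through a lipid anchor and the others through a membrane span. Car8 has lost the zinc site and the enzymatic activity and is known as a binding partner of the inositol trisphosphate receptor.

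The genes lie on chromosomes 3, 4, 8, 9 and 11 of build GRCm38. Car13 (chr3:14641727-14663002), Car1 (chr3:14766216-14808368), Car3 (chr3:14863512-14872523) and Car2 (chr3:14886273-14900770) are neighbours within 259 kb of chromosome 3, with Car1 on the reverse strand and the others on the forward strand. Car14 is also on chromosome 3, at chr3:95897768-95904691. Car8 (chr4:8143362-8239041) and Car9 (chr4:43506966-43513729) are on chromosome 4, Car5a is at chr8:121916126-121944904, Car12 at chr9:66713686-66766845 and Car4 at chr11:84957786-84966044. Exons of Car14, Car5a and Car9 overlap exons of an antisense gene over 445, 314 and 214 bases. The libraries kept strand information, but which strand the counts were taken from is not given in the sources used here.

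The coding sequence around the zinc site is shown for 4 of the genes with the highest levels, to show how alike they are there. Each window of 39 bases was read from GENCODE transcripts, lies within 1 coding exon, and has in capitals the codons at the first and second of the zinc-binding positions.
Car2: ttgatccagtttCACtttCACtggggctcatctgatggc
Car3: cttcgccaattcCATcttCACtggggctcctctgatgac
Car5a: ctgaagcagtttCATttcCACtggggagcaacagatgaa
Car14: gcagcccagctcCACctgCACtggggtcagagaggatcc
The windows are at chr3:14895057-14895095 in exon 3 of Car2, chr3:14866838-14866876 in exon 3 of Car3, chr8:121927128-121927166 in exon 3 of Car5a (reverse strand) and chr3:95900291-95900329 in exon 4 of Car14 (reverse strand). The windows were found by a motif search of the translated sequences. That search allowed only histidine or arginine at the first position and only histidine at the second. Histidine at both capitalised codons of all 4 genes was thus largely fixed by the search and is not a result. The search also fixed part of the match to Car2 given next. Over the window Car3 matched Car2 at 29 bases (74.4%), Car5a at 28 (71.8%) and Car14 at 19 (48.7%).

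Library totals ran from 19581551 to 25216977 counts on genes. Counts are given as CPM, the count divided by the library total after TMM scaling and set to a common depth. A count of 0 allows up to 3 counts in a library, which is 0.0896 to 0.206 CPM, and such limits cover counting error only. Alb (albumin) was high in every library, from 27765 CPM in hepatoblasts to 118984 CPM in mature hepatocytes. Dlk1 was at 2461 to 4199 CPM in hepatoblasts, which were lysed right after sorting for it. In Diff. hepatocytes, grown from such sorted cells, Dlk1 was at 88.3 to 99.1 CPM, and in mature hepatocytes at 3.17 to 6.42 CPM. Hepatoblast replicate 1 stood apart: its 16 red-cell genes (hemoglobins, Slc4a1 and others) summed to 3889 CPM, against 475 to 794 CPM in the other hepatoblast libraries. Its summed macrophage (349 against 85.6 to 109 CPM), neutrophil (507 against 35.5 to 56.9 CPM), megakaryocyte (60 against 13.4 to 29.6 CPM) and endothelial (157 against 52.1 to 81.2 CPM) markers were also the highest of that group. In bulk libraries fewer cells of a type and less RNA per cell cannot be told apart. Fold changes that moved by over 1.5 times without hepatoblast replicate 1 are also given without it.

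The total RNA level of the family and its make-up both differed between the groups. To set genes beside each other, CPM was divided by the kilobases of merged exons. The 10 genes summed to 106 to 226 CPM per kb in hepatoblasts, 7.87 to 10.4 in Diff. hepatocytes and 1151 to 1368 in mature hepatocytes, with no overlap between groups. In mature hepatocytes Car3 made up 92.6% ± 0.574 (SD, n = 4) of that sum, and by CPM per kb it ranked 56 among 17765 genes. In hepatoblasts Car3 and Car2 held 52.8% ± 20.3 and 31.7% ± 24.3, and in replicate 1 Car2 held 67.1% and Car3 24.3%. Without that library their shares were 62.2% ± 8.92 for Car3 and 19.8% ± 6.93 for Car2 (SD, n = 3). In Diff. hepatocytes Car8 held 35.9% ± 2.18, Car2 26.6% ± 1.37, Car14 17.5% ± 0.228, Car5a 11.8% ± 2.86 and Car3 2.63% ± 1.36. Car8 led Car2 in each of these libraries, and without division by length Car8 held 48.4% and Car2 22.6%. These shares describe RNA and carry no information on enzyme activity, which for Car8 is absent.

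**Figure D1:**
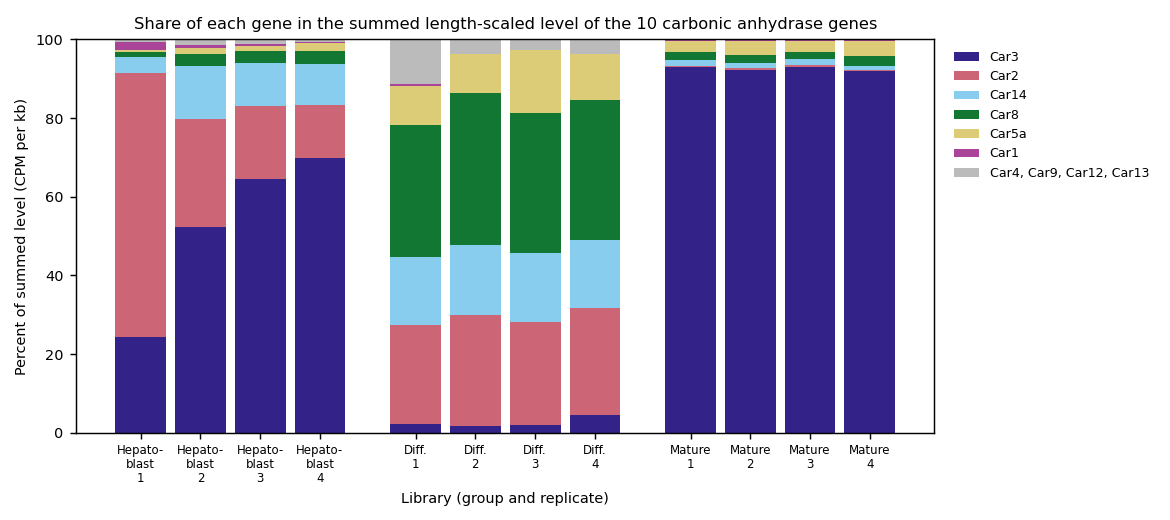
Stacked bars give the share of each gene in the summed level of the 10 carbonic anhydrase genes, in percent. The level is CPM per kb of merged exons, and the bars are the 12 libraries by group and replicate. Car4, Car9, Car12 and Car13 share the grey segment in every library. Car3 (dark blue) held 92 to 93.1% in mature hepatocytes and 1.68 to 4.65% in Diff. hepatocytes, and Car2 (rose) held 67.1% in hepatoblast replicate 1.

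The order of the genes by CPM per kb differed between groups. In hepatoblasts it was Car3 (74.2), Car2 (56.3), Car14 (13.3), Car8 (3.83), Car5a (1.79), Car1 (1.53), Car13 (0.589), Car4 (0.561), Car9 (0.16) and Car12 (0.0775). The values of Car3 and Car2 overlapped across the 4 libraries, as did each pair of neighbours from Car5a down to Car12. The means of Car2 and Car1 rest on replicate 1, and without it Car2 was at 24.4 and Car1 at 0.598. Car3 (80.5) and Car2 then no longer overlapped, and Car4 (0.671) came before Car1. In Diff. hepatocytes the order was Car8 (3.4), Car2 (2.52), Car14 (1.65), Car5a (1.12), Car13 (0.319), Car3 (0.254), Car9 (0.111), Car12 (0.0451), Car1 (0.00866) and Car4 (0). There Car8 overlapped Car2, Car14 overlapped Car5a, Car13 overlapped Car3, Car3 overlapped Car9, Car12 overlapped Car1 and Car1 overlapped Car4. In mature hepatocytes Car3 (1204), Car5a (42), Car8 (26.9), Car14 (18.5), Car1 (5.15) and Car2 (2.92) followed each other without overlap, as did Car2 and Car13 (0.115). Below it Car13 overlapped Car9 (0.0207), Car9 overlapped Car12 (0.00204) and Car12 overlapped Car4 (0). Overlap here compares ranges over the libraries of a group, and some overlapping neighbours kept their order in each library. In hepatoblasts this was Car1 over Car13, and in mature hepatocytes Car13 over Car9. In Diff. hepatocytes it held for Car8 over Car2, Car14 over Car5a and Car12 over Car1.

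**Figure D2:**
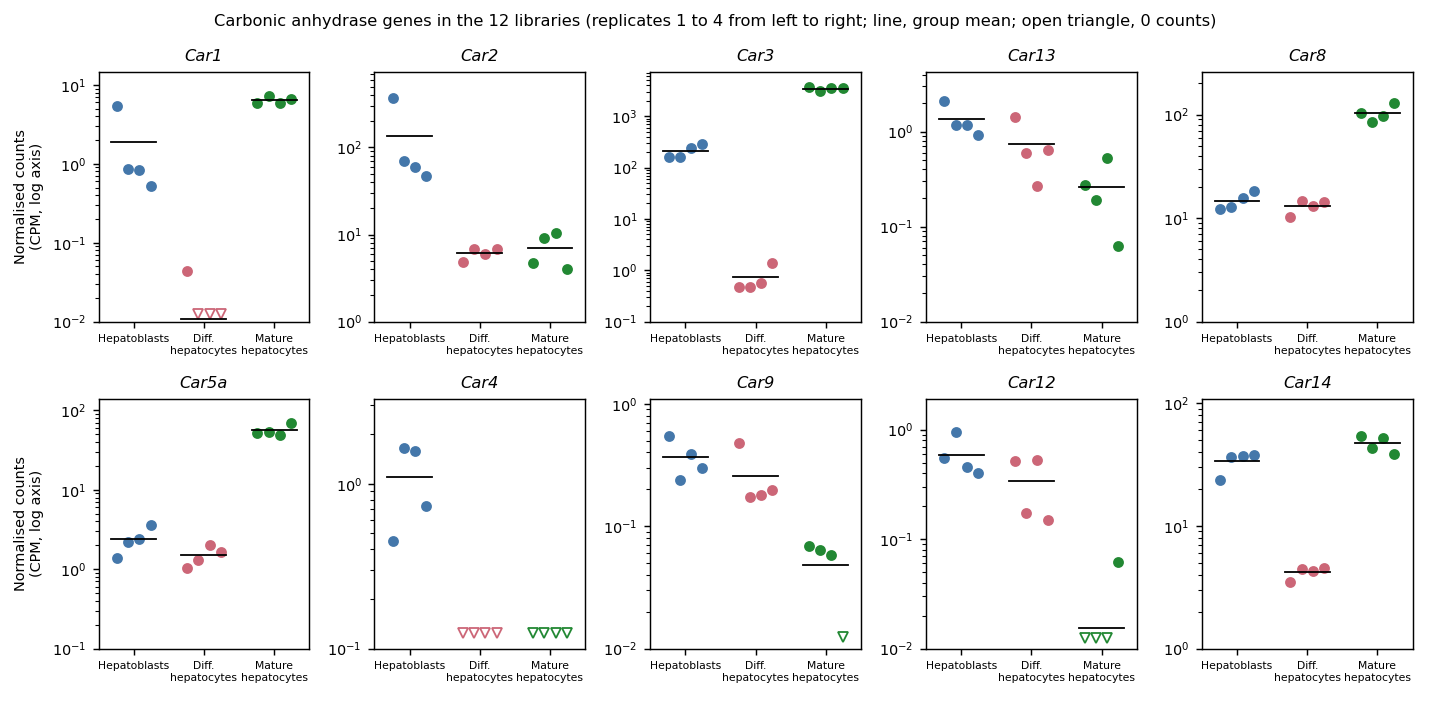
Each panel gives the CPM of 1 carbonic anhydrase gene on a log axis in hepatoblasts, Diff. hepatocytes and mature hepatocytes, with the 4 replicates as points, the group mean as a line and libraries with 0 counts as open triangles at the foot of the panel. Car3, Car5a and Car8 were highest in mature hepatocytes, Car14 was low in Diff. hepatocytes only, and Car4 had 0 counts in 8 libraries.

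Among the cytosolic enzymes, Car3 had the widest range of the 10 genes. Its levels were 158, 158, 246 and 287 CPM in hepatoblast replicates 1 to 4. In Diff. hepatocytes they were 0.476, 0.474, 0.577 and 1.38 CPM, on 11 to 28 counts a library. In mature hepatocytes they were 3649.7, 3043, 3554 and 3548 CPM, on 47418 to 60899 counts. The 3 groups did not overlap, and cultured cells lay below the embryonic cells from which such cultures start, not between embryonic and adult cells. The fitted log2 fold change was -8.21 (SE 0.34) in Diff. hepatocytes against hepatoblasts, 4.02 (SE 0.26) in mature hepatocytes against hepatoblasts and -12.23 (SE 0.38), or 4806-fold, in Diff. against mature hepatocytes. The rule that chose the genes used these contrasts, so these and all other fold changes of the 10 genes are a description and carry no test.

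Car2, a fast and widely used hydratase, followed another order. Hepatoblast replicate 1 held 368 CPM and the other hepatoblast libraries 69.7, 60.1 and 47.4 CPM. Diff. hepatocytes held 4.8, 6.76, 6.04 and 6.8 CPM and mature hepatocytes 4.73, 9.05, 10.4 and 4.04 CPM. All hepatoblast libraries lay above all others, while the Diff. and mature libraries overlapped. The log2 fold change was -4.48 (SE 0.65) in Diff. hepatocytes and -4.26 (SE 0.64) in mature hepatocytes against hepatoblasts. Without hepatoblast replicate 1 these were -3.27 and -3.06. Between Diff. and mature hepatocytes it was -0.22 (SE 0.63), and its sign changed in a fit that left out 1 library, so no direction is read from it.

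Car1, the other red-cell isoform, was lowest in culture. Its counts were 168, 29, 26 and 16 in hepatoblasts, 1, 0, 0 and 0 in Diff. hepatocytes, and 86, 114, 101 and 106 in mature hepatocytes. That is 5.42 CPM in hepatoblast replicate 1, 0.53 to 0.866 CPM in the other hepatoblast libraries and 5.89 to 7.32 CPM in mature hepatocytes. From the summed counts, Car1 was lower in Diff. hepatocytes by a ratio of 169.7 against hepatoblasts (95% counting interval 30.2 to 6731), and of 66.9 (11.6 to 2681) without hepatoblast replicate 1. Against mature hepatocytes the ratio was 572 (102 to 22658). Mature hepatocytes lay above all hepatoblast libraries, with a log2 fold change of 1.74 (SE 0.58) that was not called, and of 3.09, called, without hepatoblast replicate 1. About 6.02% of the 75-base stretches of Car1 transcripts also occur in another gene, so its counts are less certain than those of Car2 and Car3, which share none.

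Among the hepatoblast libraries Car1 and Car2 were high in the library where the red-cell genes were high. Hepatoblast replicate 1 held 7.27 times the mean of the other hepatoblast libraries for Car1 and 6.23 times for Car2. All 16 red-cell genes were higher there, by ratios of 2.91 to 8.49 with a median of 6.38. Of the other members, Car13 (1.94) and Car9 (1.78) were above 1, and Car12 (0.91), Car8 (0.79), Car3 (0.686), Car14 (0.64), Car5a (0.507) and Car4 (0.342) were below it. Set against the summed red-cell genes, Car2 stood at 8.78 to 9.98% and Car1 at 0.109 to 0.139% in all 4 hepatoblast libraries. In the other groups Car2 stood at 12.1 to 43% in Diff. and 2.26 to 5.94% in mature hepatocytes, and Car1 at 0 to 0.109% and 2.82 to 4.33%. The part of red cells in the Car1 and Car2 levels of hepatoblasts was not tested.

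In mature hepatocytes, where Car1 had 86 to 114 counts, the red-cell genes ranged from 0 to 2587 counts. Hbb-bs, an adult beta globin gene, had 20, 4, 20 and 0 counts, Epb42, a protein of the red-cell skeleton, had 0 counts in all 4 libraries, and 3 to 6 of the 16 red-cell genes had no count in a given library. The summed red-cell level of 152 to 209.5 CPM there came mostly from Alas2, the red-cell form of the first enzyme of heme synthesis, at 130.4 to 177 CPM. Tspan33, at 16.6 to 25.1 CPM, Klf1, at 35 to 63 counts, Hba-a1, at 10 to 18 counts, and Epor, at 8 to 11 counts, were also present in every mature library. The part of red cells in the Car1 level there was not tested. In Diff. hepatocytes the list summed to 15.8 to 39.8 CPM, with Kel at 0 counts in 3 libraries and Rhag in 2. Of that sum Tspan33 held 7 to 9.6 CPM and Hbb-bs 1.38 to 12.8 CPM.

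**Figure D3:**
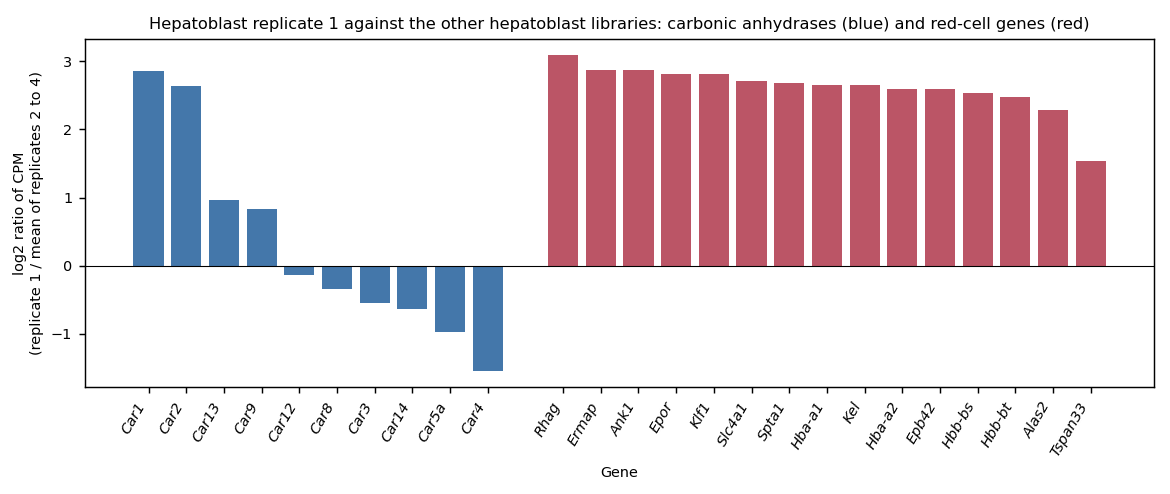
Bars give the log2 ratio of CPM in hepatoblast replicate 1 to the mean of hepatoblast replicates 2 to 4, for the 10 carbonic anhydrase genes (blue) and 15 of the red-cell genes (red), each sorted by value. Car1 (2.86) and Car2 (2.64) lie in the range of the red-cell genes (1.54 to 3.09), and the other 8 lie between -1.55 and 0.96.

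Car13, a cytosolic enzyme encoded next to Car1, was low in all groups. It had 66, 40, 36 and 28 counts in hepatoblasts, 33, 14, 6 and 13 in Diff. hepatocytes and 4, 3, 9 and 1 in mature hepatocytes. Hepatoblasts lay above mature hepatocytes without overlap, at a log2 fold change of -2.32 (SE 0.57) for mature hepatocytes, and Diff. hepatocytes overlapped both. The neighbours on chromosome 3 thus differed in the group that was highest, which was mature hepatocytes for Car3 and Car1 and hepatoblasts for Car2 and Car13.

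Car8, the form without activity, was higher in adult cells than in embryonic or cultured cells. Its levels were 12.3, 12.8, 15.6 and 18.3 CPM in hepatoblasts. Diff. hepatocytes held 10.2, 14.7, 13.2 and 14.2 CPM, and mature hepatocytes 103, 84.9, 97.7 and 129 CPM. The first 2 groups overlapped, with a log2 fold change of -0.17 (SE 0.16), and all mature libraries were higher. Mature hepatocytes differed from hepatoblasts by 2.81 (SE 0.17), and Diff. from mature hepatocytes by -2.98 (SE 0.17), on the log2 scale.

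Car5a, the mitochondrial form of the liver, had the same shape. Hepatoblasts held 1.39, 2.21, 2.4 and 3.61 CPM, and Diff. hepatocytes 1.04, 1.29, 2.04 and 1.63 CPM. In mature hepatocytes they were 52.4, 53.5, 49.3 and 70 CPM. Hepatoblasts and Diff. hepatocytes overlapped (log2 fold change -0.68, SE 0.28), and mature hepatocytes lay above both, by 4.55 (SE 0.26) against hepatoblasts. Diff. hepatocytes differed from mature hepatocytes by -5.23 (SE 0.28).

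Among the enzymes that use mitochondrial bicarbonate, Cps1 and Pcx had another order of levels than Car5a. Cps1, the carbamoyl phosphate synthetase of the urea cycle, was at 16.7 to 29.9 CPM in hepatoblasts. It was at 5298 to 6190 CPM in Diff. hepatocytes and 5264 to 6850.2 CPM in mature hepatocytes. It rose in Diff. hepatocytes by 8.07 (SE 0.23, adjusted p = 3.1e-11) and did not pass the test between Diff. and mature hepatocytes (-0.04, SE 0.17, adjusted p = 0.866, edgeR). Pcx, pyruvate carboxylase, also rose in Diff. hepatocytes by 3.1 (SE 0.14, adjusted p = 1.53e-09) and stood at 693 CPM there and 883 CPM in mature hepatocytes (-0.35, SE 0.13, adjusted p = 0.027). Car5b, the other mitochondrial carbonic anhydrase, was at 0.358 to 0.516 CPM in hepatoblasts, at 0.355 to 0.99 CPM after culture and at 4.11 to 5.46 CPM in mature hepatocytes. It was higher in mature hepatocytes than in hepatoblasts by 3.49 (SE 0.3, adjusted p = 1.96e-07) and lower in Diff. than in mature hepatocytes by a log2 fold change of -3.04 (SE 0.3, adjusted p = 1.12e-06). The 2 subunits of methylcrotonyl-CoA carboxylase overlapped between hepatoblasts and Diff. hepatocytes, at 26.8 to 38.7 and 26.5 to 35.5 CPM for Mccc1 and 29.5 to 47.1 and 26.1 to 33.2 CPM for Mccc2. Both were lower in Diff. than in mature hepatocytes (Mccc1 -1.24, SE 0.12, adjusted p = 1.3e-06, and Mccc2 -1.56, SE 0.13, adjusted p = 2.54e-07), a call that Mccc1 lost with library totals (-0.71). Thus in Diff. hepatocytes the levels of Cps1 and Pcx overlapped those of adult cells while Car5a, Car5b, Mccc1 and Mccc2 overlapped their embryonic levels. The subunits of propionyl-CoA carboxylase did neither and lay between the other groups. Pcca was at 29.2 to 41.5 CPM in hepatoblasts, 47.7 to 61 CPM in Diff. and 112 to 131 CPM in mature hepatocytes. Pccb was at 45.7 to 57.8, 73.1 to 90.4 and 239.8 to 299.9 CPM in the same order.

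**Figure D4:**
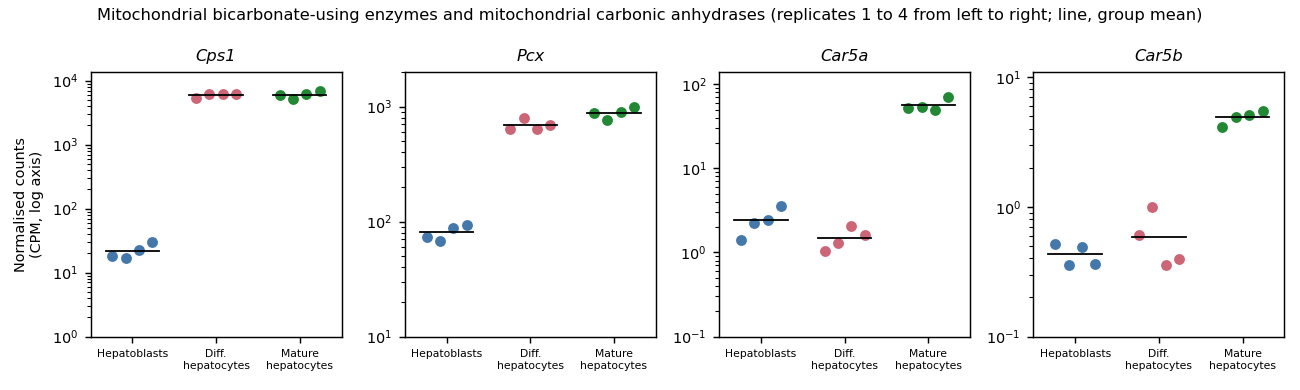
Each panel gives CPM on a log axis for Cps1, Pcx, Car5a and Car5b in the 3 groups, with the 4 replicates as points and the group mean as a line. Diff. hepatocytes lie with mature hepatocytes for Cps1 (5298 to 6190 CPM against 5264 to 6850.2) and with hepatoblasts for Car5a (1.04 to 2.04 CPM against 1.39 to 3.61).

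Among the enzymes that face the outside of the cell, Car14, a membrane-spanning form known from hepatocytes, was low only in culture. Its levels were 23.7, 36.2, 36.9 and 38 CPM in hepatoblasts. In Diff. hepatocytes they were 3.5, 4.43, 4.31 and 4.54 CPM, and in mature hepatocytes 54.2, 43.3, 52.3 and 38.3 CPM. Diff. hepatocytes lay below both other groups, at log2 fold changes of -3.01 (SE 0.17) against hepatoblasts and -3.49 (SE 0.18) against mature hepatocytes. Mature hepatocytes and hepatoblasts differed by 0.48 (SE 0.15), which became -0.36 when libraries were scaled by their totals, so its direction depends on the scaling. Part of the Car14 exons lies opposite Aph1a, a subunit gene of gamma-secretase.

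Car4, Car9 and Car12 were near the limit of detection. Car4, an anchored form known from blood vessel walls, had 14, 55, 49 and 22 counts in hepatoblasts and 0 counts in the other 8 libraries. It was at least 8.17-fold lower in Diff. hepatocytes and at least 5.81-fold lower in mature hepatocytes, with the floor set at 3 counts per library. Summed endothelial markers were also lower in culture, at 8.88 to 16.8 CPM against 52.1 to 157 CPM in hepatoblasts. They were at 121 to 225 CPM in mature hepatocytes, where Car4 had no counts. The part of endothelial cells in the Car4 level was not tested.

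Car12, known as a target of hypoxia and of hormone signals in other tissues, had 17, 32, 14 and 12 counts in hepatoblasts, 12, 4, 12 and 3 in Diff. hepatocytes and 0, 0, 0 and 1 in mature hepatocytes. Mature hepatocytes were lower than hepatoblasts by a counting ratio of 37.9 (6.59 to 1516), and Diff. hepatocytes were higher than mature hepatocytes by 22 (3.67 to 899). Diff. hepatocytes and hepatoblasts overlapped, at a log2 fold change of -0.77 (SE 0.48). Bile duct markers, among them Krt19 and Krt7, summed to 93.8 to 233 CPM in Diff. hepatocytes, 27 to 36 CPM in hepatoblasts and 37.7 to 66.6 CPM in mature hepatocytes. Mesenchymal markers summed to 1179 to 2923, 674 to 1307 and 51.2 to 74 CPM in the same order. Their part in the Car12, Car9 and Car13 levels was not tested.

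Car9, the form best known as a marker of hypoxia, had 17, 8, 12 and 9 counts in hepatoblasts, 11, 4, 4 and 4 in Diff. hepatocytes and 1, 1, 1 and 0 in mature hepatocytes. The first 2 groups overlapped and both lay above mature hepatocytes. Mature hepatocytes were lower than hepatoblasts by a counting ratio of 7.74 (2.49 to 38.9). Diff. hepatocytes were higher than mature hepatocytes by 5.45 (1.65 to 28.4), and by 3.84 (1.04 to 21.2) without Diff. replicate 1. That call was lost in 11 of 12 fits that left out 1 library, all but the one without hepatoblast replicate 1, so it is given as a count and not as a change.

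**Figure D5:**
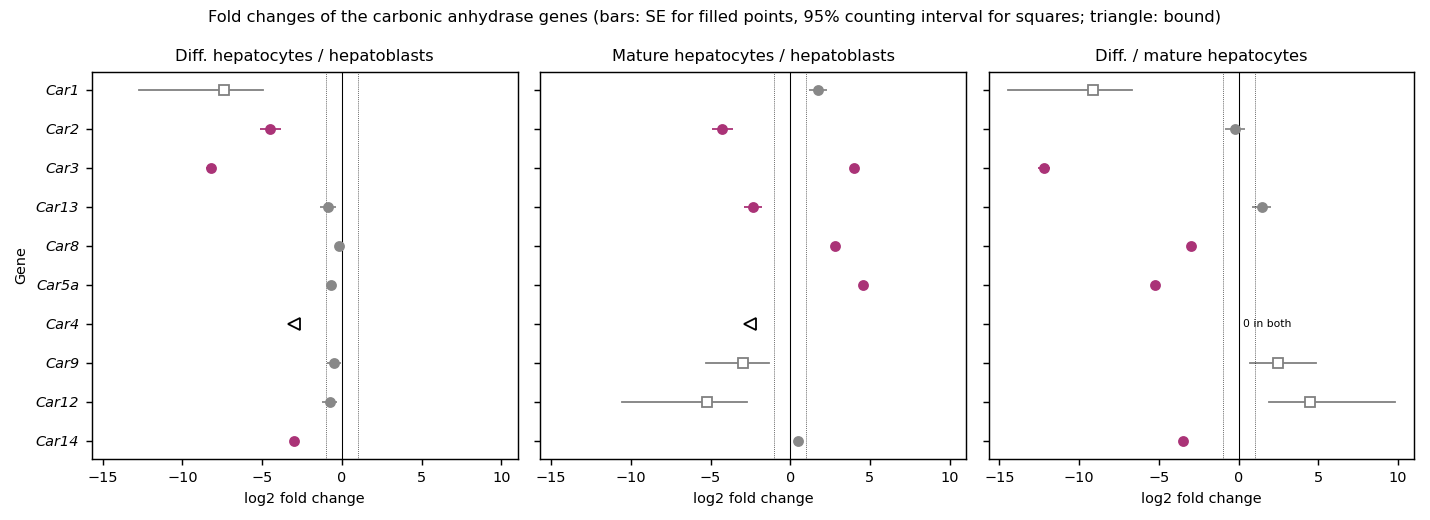
Points give the log2 fold change of each carbonic anhydrase gene in the 3 comparisons, with bars of 1 SE; purple points were called and grey points were not. Open squares are ratios of summed counts with 95% counting intervals where a group held 1 to 3 counts, open triangles are bounds against a floor of 3 counts per library, and dotted lines mark a log2 fold change of 1 in either direction. Against hepatoblasts, all estimates in Diff. hepatocytes lie at or below -0.17, while mature hepatocytes hold 3 called genes on the positive side (Car3, Car5a and Car8).

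Counted together, 5 of the 10 genes were called in Diff. hepatocytes against hepatoblasts, 0 higher and 5 lower (Car1, Car2, Car3, Car4 and Car14). Over all genes tested 28.9% were called there, 14.9% higher and 14% lower. In mature hepatocytes against hepatoblasts 8 were called, 3 higher (Car3, Car5a and Car8) and 5 lower (Car2, Car4, Car9, Car12 and Car13), beside 44.8% of all genes (20.1% higher, 24.7% lower). In Diff. against mature hepatocytes 7 were called, 2 higher (Car9 and Car12) and 5 lower (Car1, Car3, Car5a, Car8 and Car14), beside 35.8% of all genes (20.2% higher, 15.6% lower). The Car9 call among these is the one lost in 11 of 12 fits without 1 library. The groups did not overlap for 5, 10 and 7 members in these comparisons, beside 57.5%, 66% and 61.6% of all genes. With genes at 0 in a group set at their bound, the median log2 fold changes were -1.94, -0.92 and -2.98 (the last over 9 genes), beside -0.01, -0.15 and 0.09 over all genes. The genes were chosen with these contrasts known, and nothing is read from the counts. Each pair of the comparisons shares a group of libraries.

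The other carbonic anhydrase genes of the table were 6, and 3 of them were tested. Car7, a cytosolic enzyme known from neurons, was at 5.91 to 8.45 CPM in hepatoblasts, at 0.444 to 0.951 CPM after culture and at 1.11 to 1.99 CPM in mature hepatocytes. It fell in Diff. hepatocytes against hepatoblasts (-3.41, SE 0.27, adjusted p = 2.11e-07) and was lower in mature hepatocytes than in hepatoblasts (-2.33, SE 0.26, adjusted p = 2.2e-06). Car7 was also lower in Diff. than in mature hepatocytes (-1.08, SE 0.28, adjusted p = 0.00417), a call lost with library totals (-0.56) and in 4 of 12 fits without 1 library (as low as -0.86 without mature replicate 2). Car11, a form without activity, had 7 to 10, 1 to 7 and 8 to 15 counts in the same order and was higher in mature hepatocytes than in hepatoblasts (1.42, SE 0.4, adjusted p = 0.00563) and Diff. hepatocytes. The call against hepatoblasts was lost with library totals (0.57) and in 6 of 12 fits without 1 library (1.28 to 1.46). Car6, Car10 and Car15 had at most 6, 2 and 4 counts in a library and were not tested.

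Transporters of bicarbonate and acid were called in both directions, at shares of 41.2%, 52.9% and 35.3% in the 3 comparisons beside 28.9%, 44.8% and 35.8% of all genes. Of 23 genes 17 were tested, and 7 were called in Diff. hepatocytes against hepatoblasts (2 higher, 5 lower), 9 in mature hepatocytes against hepatoblasts (2 higher, 7 lower) and 6 in Diff. against mature hepatocytes (4 higher, 2 lower). The same numbers were called with p-values adjusted over the list alone. This adds no support, here or for the lists below, since the lists were chosen with earlier results of these data known. Slc4a1, the anion exchanger of red cells, fell from 279 to 0.51 CPM in Diff. hepatocytes (-9.07, SE 0.86, adjusted p = 1.19e-06, and -7.8 without hepatoblast replicate 1) and is itself one of the red-cell genes above. Its hepatoblast mean rests on replicate 1, at 766 CPM against 84.9 to 148 CPM. Slc26a6, a chloride and bicarbonate exchanger, fell from 18.7 to 4.43 CPM (-2.08, SE 0.24, adjusted p = 8.36e-06), and Slc16a3, which exports lactate with a proton, from 27.5 to 3.13 CPM (-3.13, SE 0.32, adjusted p = 2.58e-06). The 2 that rose in Diff. hepatocytes were Slc4a9 (0.581 to 3.03 CPM, 2.38, SE 0.54), whose groups overlapped, and Slc16a7 (51.4 to 115 CPM, 1.16, SE 0.25). Slc16a7 lost its call with library totals (0.84) and without Diff. replicate 2. The 2 genes that rose in mature hepatocytes were Slc26a1, a sulfate and anion exchanger (48.3 to 290.1 CPM, 2.59, SE 0.15, adjusted p = 5.05e-09), and Slc4a4, a sodium bicarbonate cotransporter (40.5 to 163 CPM, 2.01, SE 0.21, adjusted p = 1.5e-06). Both were lower in Diff. than in mature hepatocytes (Slc26a1 -1.66, SE 0.15, adjusted p = 4.69e-07, and Slc4a4 -1.29, SE 0.21, adjusted p = 0.000105), a call that Slc4a4 lost with library totals (-0.75).

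Of 10 genes for enzymes that fix bicarbonate or attach the biotin they need, 4 were called in Diff. hepatocytes against hepatoblasts (3 higher, 1 lower), 8 in mature hepatocytes against hepatoblasts (7 higher, 1 lower) and 6 in Diff. against mature hepatocytes (1 higher, 5 lower), with the same numbers adjusted over the list alone. Beside these shares of 40%, 80% and 60% stand 28.9%, 44.8% and 35.8% of all genes. Besides Cps1 and Pcx, Acacb, an acetyl-CoA carboxylase of the mitochondrial surface, rose in Diff. hepatocytes from 5.3 to 57.2 CPM (3.43, SE 0.24, adjusted p = 6.35e-08) and stood at 181 CPM in mature hepatocytes. Cad, which uses cytosolic bicarbonate for pyrimidine synthesis, fell from 144 CPM to 71 CPM in Diff. hepatocytes (-1.02, SE 0.15, adjusted p = 4.52e-05), a call that was lost without hepatoblast replicate 1 (-0.92) and without Diff. replicate 1 (-0.98). Pccb, a subunit of propionyl-CoA carboxylase, was at 81.2 CPM in Diff. and 269 CPM in mature hepatocytes (-1.73, SE 0.11, adjusted p = 1.72e-08).

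Because Car9 and Car12 are known targets of the hypoxia-inducible factor HIF, 20 other HIF targets were set beside them. In Diff. hepatocytes against hepatoblasts 5 were called (4 higher, 1 lower), in mature hepatocytes against hepatoblasts 11 (6 higher, 5 lower) and in Diff. against mature hepatocytes 9 (7 higher, 2 lower), again with the same numbers adjusted over the list alone. These shares of 25%, 55% and 45% stand beside 28.9%, 44.8% and 35.8% of all genes. Egln3, a prolyl hydroxylase that marks HIF for decay, rose from 1.44 to 40.6 CPM in Diff. hepatocytes (4.82, SE 0.25, adjusted p = 5.17e-09). It was also higher in mature hepatocytes, at 26.7 CPM (4.21, SE 0.25, adjusted p = 4.32e-09), and was not called between Diff. and mature hepatocytes (0.61, SE 0.2). Ddit4, also known as a glucocorticoid target, rose from 16 to 250.2 CPM in Diff. hepatocytes (3.97, SE 0.33, adjusted p = 3.58e-07). The gene that fell there was Pfkfb3 (-1.44, SE 0.39, adjusted p = 0.00605), a call lost in 6 of 12 fits without 1 library. Adm, the peptide hormone adrenomedullin, was at 6.7 CPM in Diff. and 0.587 CPM in mature hepatocytes (3.51, SE 0.24, adjusted p = 4.13e-08). Hk2, a hexokinase, was at 27.7 CPM in Diff. and 1.67 CPM in mature hepatocytes (4.05, SE 0.21, adjusted p = 3.47e-09). Vegfa (-1.04, SE 0.13, adjusted p = 1.32e-05) and Pdk1 (-1.61, SE 0.15, adjusted p = 7.16e-07) went the other way, Vegfa losing its call with library totals (-0.51) and without mature replicate 2 (-0.97). Car9 was at 0.256 CPM in Diff. hepatocytes and 0.368 CPM in hepatoblasts. The letters ACGTG or GCGTG, the core of the HIF binding motif, were found on either strand in the RefSeq promoters (GRCm38.p6) of 3 of 5 members (Car4, Car9 and Car14) and in 43.8% of all 32851 promoters of the same length, so the motif is common.

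The genes with the most similar pattern over the 12 libraries were named for the 5 members that reached 10 CPM on average in a group, among 9751 genes. The correlations are of log2 CPM, the libraries share their 3 groups, and the values are a description. Car2 was most like Bcl11a (r = 0.987), Sptb (0.986) and Rfwd3 (0.982). Car3 was most like Tmem86b (0.995), Pyroxd2 (0.993) and Cd59a (0.991), and Car14 most like Fgfr4 (0.991), Jmjd8 (0.99) and Zfp36 (0.989). Car5a was most like Inhbc (0.997), 5830473C10Rik and Oaf, and Car8 like Inhbc (0.996), Itm2b and Sdha. For Car5a and Car8, 675 and 735 genes had a correlation over 0.95, for Car2, Car14 and Car3 75, 109 and 146.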

How the data were processed

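RNA of 12 libraries, 4 of each group, was analysed. The authors sequenced poly(A) RNA as strand-specific 75-bp single reads, checked them with FastQC 0.11.2 and Picard 2.10.2, and mapped and counted them with STAR 2.5.2b on GRCm38 and Ensembl release 92. The authors deposited raw, whole-number counts for each gene. The strand column used is not given in the sources used here. Symbols, positions and transcripts came from GENCODE M21 (53620 of 53715 identifiers matched) and promoters from RefSeq.

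The counts were fitted in R 4.3.3 with edgeR 4.0.16, by the quasi-likelihood test with TMM scaling and the group as its only term, on the 17779 genes that exceeded 10 counts in a library. P-values were adjusted by Benjamini-Hochberg over these genes. Calls needed an adjusted p below 0.01 together with a log2 fold change beyond 1 in either direction, the limits the authors used with DESeq2 1.22.2. Fold changes in the text are log2 fold changes of this fit. Where a group held 1 to 3 counts in all, the ratio of summed counts is given with an exact 95% interval for counting error only. P-values measure the spread between libraries, which the authors call biological replicates. The fit was tested on simulated data. Alternatives were DESeq2 1.42.0, its size factors, library totals, no filter, filterByExpr, 8 libraries, a replicate block, an adjusted p below 0.05 alone, and leaving out each library.

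The 10 genes and all lists were chosen with earlier results of these data known, so the p-values of listed genes are not those of genes fixed beforehand. From each list the text names, per comparison, at most 4 called genes in each direction with the largest fold change and a mean of at least 1 CPM, and of these those printed were picked after their values were seen. Every other carbonic anhydrase gene, Cps1 and Pcx are named, and per member of at least 10 CPM the 3 genes of highest correlation. Pcca is named as the other subunit beside Pccb. Imaging and screens of the study were not analysed here, and some items are not reported here.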

Additional observations from a re-analysis of the deposited data

Results flagged for a closer look

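In each of 115 groups of 4 libraries, the highest or lowest library was set against the others. It lay apart by Dixon's criterion (gap over range above 0.829) in 11 groups, where chance gives about 1 in 20 groups, here 5.8. Of these, 4 were in hepatoblast replicate 1. Car1 was at 5.42 CPM there against 0.53 to 0.866 CPM in the other hepatoblast libraries, Car2 at 368 against 47.4 to 69.7 CPM, and the red-cell anion exchanger Slc4a1 at 766 against 84.9 to 148 CPM, while Car14 was lower, at 23.7 against 36.2 to 38 CPM. Diff. replicate 1 held 3: Car9 at 0.476 CPM against 0.172 to 0.197 CPM, Slc16a3 at 5.32 against 2.27 to 2.58 CPM, and Cps1 at 5298 against 6093 to 6190 CPM. Car3 was at 1.38 CPM in Diff. replicate 4 against 0.474 to 0.577 CPM, and at 3043 CPM in mature replicate 2 against 3548 to 3649.7 CPM. Car7 was at 1.99 CPM in mature replicate 2 against 1.11 to 1.23 CPM, and Slc16a7, a carrier of lactate and pyruvate, at 99.6 CPM in mature replicate 4 against 44.8 to 49.2 CPM. The cause was not tested.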

How the results depend on the processing

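None of the called fold changes turned its direction under any alternative that was run. Of 300 counts of calls under the alternatives, 293 were within 1.5 times the value reported. With an adjusted p below 0.05 as the only limit, 12 transporters were called in Diff. hepatocytes and 14 in mature hepatocytes against hepatoblasts, and 8 bicarbonate-using enzymes in Diff. hepatocytes against hepatoblasts. HIF targets numbered 14 and 17 in the same comparisons with hepatoblasts and 15 between Diff. and mature hepatocytes. With library totals, 5 enzymes were called in mature hepatocytes against hepatoblasts. Library totals in place of TMM moved the median log2 fold change of all genes by -0.32 in Diff. and -0.85 in mature hepatocytes against hepatoblasts, and by 0.53 between Diff. and mature hepatocytes. Without division by length, Car3 held 94% of the summed level in mature hepatocytes. In Diff. hepatocytes Car8 then held 48.4%, Car2 22.6%, Car5a 5.54% and Car12 1.34%. DESeq2 gave no adjusted p for Car1 in Diff. hepatocytes against either group, and Car9 was not called between Diff. and mature hepatocytes by DESeq2 and was not tested under filterByExpr.

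Replicate numbers were not taken to pair the libraries, since the sample labels do not say that they do. Between Diff. hepatocytes and hepatoblasts 3 of 4 same-numbered pairs correlated over 0.1 (0.324, 0.246 and 0.184, against -0.0589 for replicate 2). There 5 of 8 libraries correlated best with their own number. This is a hint of pairing from the data, not from the design. In the comparisons with mature hepatocytes 0 of 4 pairs did (-0.0813 to 0.0923), and 4 and 1 of 8 libraries correlated best with their own number. With the replicate block 5, 9 and 7 of the 10 genes were called in the 3 comparisons, the added call being Car1 in mature hepatocytes against hepatoblasts (2.35). Car11 in the same comparison and Pfkfb3 in Diff. hepatocytes against hepatoblasts lost their calls under the block. Depth limits Car4, Car9, Car12 and Car13 most, with at most 66 counts in a library.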
